A study of Mus musculus with 12 samples.

Results

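The data described here are the transcriptional response of mature mouse white adipocytes to isoproterenol (ISO) while the lipases adipose triglyceride lipase (ATGL) and hormone-sensitive lipase (HSL) were inhibited. They are 6 of the 12 RNA sequencing libraries of the series, 3 cultures given inhibitors and ISO (Lip+ISO) and 3 given inhibitors only (Lip), chosen by the sample titles. The other 6 libraries, 3 of vehicle (DMSO in the titles) and 3 of ISO without inhibitors, were used to estimate the spread and to show where the response differed when lipolysis was intact. All 4 groups were epididymal white adipocytes of lean male C57/BL6J mice, freed with collagenase, floated, embedded at 50000 cells per well in a hydrogel and cultured for 2 days before treatment, with ISO present for 3 h. The study's methods name Atglistatin as the inhibitor of ATGL and CAY10499 as that of HSL and of monoglyceride lipase (MGL). They describe RNA sequencing from independent experiments. The age of the animals, and whether the cultures pooled several of them, are not given in the sources used here. The legend for these cells names the lipase activator SR-3420 as the stimulus, whereas the sample titles and the results text name ISO, which was taken as the stimulus.

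Isoproterenol activates β-adrenergic receptors, which couple through Gs to adenylyl cyclase. The cyclic AMP formed activates protein kinase A (PKA), which phosphorylates CREB in the nucleus and, at the lipid droplet, perilipin and HSL, so that ATGL and HSL release fatty acids. Fatty acids can act as ligands of peroxisome proliferator-activated receptors (PPARs) and as signals of their own. The inhibitors act at the lipases, downstream of cyclic AMP. The comparison of Lip+ISO with Lip therefore addresses which part of the agonist response does not need these enzymes. For brown adipocytes, however, the study proposes that inhibiting lipolysis raises PKA signalling, perhaps by lifting an inhibition of adenylyl cyclase by fatty acids. Whether this holds in the white adipocytes was not tested. Neither cyclic AMP nor fatty acid release is among the measurements analysed here.

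The 6 libraries held 25573299 to 34903696 counts, and those of the whole series 22632220 to 43707557. Adipocyte genes were high throughout, the summed level of 8 adipocyte markers being 27520.0 to 32340.0 counts-per-million (CPM) in Lip and 23750.0 to 32100.0 CPM in Lip+ISO. For the genes that varied most across the 6 libraries, a principal component with 71.0% of their variance separated the 3 Lip+ISO from the 3 Lip libraries. Choosing genes by that variance favours such a separation. In these bulk cultures a fall in a gene's level cannot be told apart from a smaller share of the cells that express it. No source used here states how many animals gave rise to the cultures, so the p-values measure the spread between these samples.

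A gene was called where edgeR's quasi-likelihood test gave a Benjamini-Hochberg adjusted p at or under 0.05 and the log2 fold change was at least 1 in size. This main fit had no term for the replicate number. A fit with that term, the replicate block, was an alternative. Of 13543 tested genes, 568 rose with ISO under the inhibitors (4.19%) and 428 fell (3.16%). At any size of change, 1562 passed as higher (11.5%) and 2140 as lower (15.8%). The rises were larger than the falls. Of the 568 genes called higher, 223 changed by a log2 fold change of at least 2 and 99 by at least 3, whereas of the 428 called lower 44 and 4 did so. Rises made up 57.0% of the calls, and 45.7% when libraries were scaled by their totals alone, a scaling that moved the median log2 fold change of all genes from -0.004 to -0.115. The genes called higher started low, with a median of 9.28 CPM in Lip against 20.9 CPM over all tested genes, and 24.6% of them had a Lip mean under 1 CPM. The genes called lower had a median of 15.0 CPM in Lip, and 4 of the 428 were under 1 CPM.

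Among called genes whose higher group averaged 5 CPM or more and whose libraries did not overlap, the largest rises were in genes that were low in Lip. Over all tested genes, called or not, 39.1% had no overlap between the Lip and the Lip+ISO libraries. Ucp1 (chr8:85814247-85822355 in mm9), the uncoupling protein that lets mitochondria make heat, had 0.447, 0.451 and 1.33 CPM in Lip and 192, 192 and 309.9 CPM in Lip+ISO (a log2 change of 8.22 with SE 0.35, edgeR adjusted p = 5.22e-09). Every Lip+ISO library was far above every Lip library. Nr4a3 (chr4:48064120-48096224), an orphan nuclear receptor induced early by cyclic AMP, had 10.2, 10.7 and 24.9 CPM in Lip and 1508, 1167 and 1548 CPM in Lip+ISO (a log2 change of 6.52 with SE 0.37, edgeR adjusted p = 6.63e-08). Vdr (chr15:97684858-97738727), the vitamin D receptor, had 9.45, 11.8 and 19.7 CPM in Lip and 1184, 1051 and 1328 CPM in Lip+ISO (a log2 change of 6.44 with SE 0.27, edgeR adjusted p = 5.22e-09). The groups of both receptors were far apart, and the third Lip library was the highest of the 3 in both. Tnfaip6, a secreted protein that binds hyaluronan, had 4.95, 5.96 and 6.64 CPM in Lip and 631, 447 and 432 CPM in Lip+ISO (a log2 change of 6.42 with SE 0.23, edgeR adjusted p = 1.64e-09). Ppp1r3g (chr13:36059775-36062257), which targets protein phosphatase 1 to glycogen, had 0.24, 0.258 and 0.083 CPM in Lip and 25.3, 23.5 and 33.2 CPM in Lip+ISO (a log2 change of 7.15 with SE 0.36, edgeR adjusted p = 2.35e-08). Its Lip values correspond to at most 8 counts in a library. The developmental transcription factors Pax1 and Scrt1 rose from at most 4 and 8 counts in a Lip library to 4.73 to 6.27 CPM and 10.1 to 16.9 CPM, with log2 fold changes of 6.15 and 6.13 and an edgeR adjusted p of 6.84e-07 for each. Dio2 belongs with these genes and is described with the thermogenic genes.

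Both genes with the highest fitted folds had almost no counts in Lip. Cyp2ab1 (chr16:20308460-20325477), a cytochrome P450 gene, had 1, 0 and 2 counts in Lip and 465, 864 and 1081 in Lip+ISO, a ratio of the pooled counts of 931 (95% interval 318 to 4519 by exact binomial counting, which covers counting error only). Epx, eosinophil peroxidase, had 0, 0 and 1 counts in Lip and 53, 170 and 256 in Lip+ISO, a ratio of 555 (95% interval 99.2 to 21980). The first Lip+ISO library of Epx held far fewer counts than the other 2. Epx is a marker of eosinophils, and the summed level of the 5 tested markers of mast cells and eosinophils was 3.65 to 5.5 CPM in Lip and 6.35 to 14 CPM in Lip+ISO. That sum includes Epx, and without it the other 4, Cpa3, Cma1, Kit and Ear1, summed to 3.63 to 5.50 CPM in Lip and 3.81 to 7.23 CPM in Lip+ISO. None of the 4 passed, and the part of such cells in the rise of Epx was not tested.

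**Figure D1:**
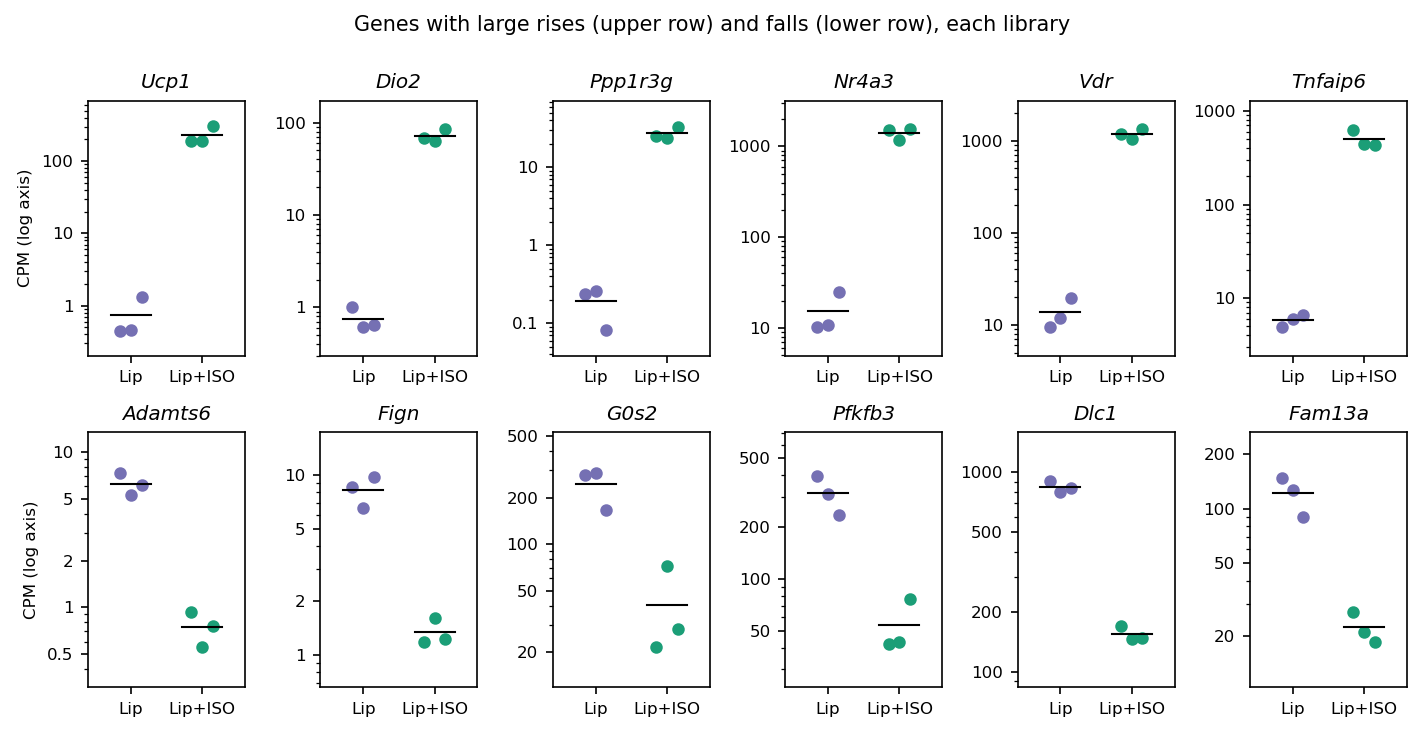
Expression in CPM (log axis) of 6 genes that rose (upper row) and 6 that fell (lower row) in the 3 Lip and 3 Lip+ISO libraries, with a point for each library and a line at the mean of each group. The genes were chosen among those whose groups did not overlap, so the separation in all 12 panels is fixed by that choice. The upper genes move over a wider range than the lower ones.

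The largest falls by the same rule were smaller in fold. Adamts6 (chr13:105077953-105284843), a secreted metalloprotease, had 7.35, 5.28 and 6.12 CPM in Lip and 0.93, 0.556 and 0.755 CPM in Lip+ISO (a log2 change of -3.06 with SE 0.25, edgeR adjusted p = 1.52e-06). Dlc1 (chr8:37630793-38015496), a GTPase-activating protein, had 906, 797 and 832 CPM in Lip and 169, 147 and 148 CPM in Lip+ISO (a log2 change of -2.45 with SE 0.10, edgeR adjusted p = 5.22e-09). G0s2, the inhibitory partner of ATGL, had 278, 290.2 and 166 CPM in Lip and 21.6, 71.9 and 28.2 CPM in Lip+ISO (a log2 change of -2.59 with SE 0.38, edgeR adjusted p = 0.000206). The lowest Lip library of G0s2 lay well above the highest Lip+ISO library. Pfkfb3 (chr2:11393058-11475556), which makes the activator of phosphofructokinase and so drives glycolysis, had 396, 309 and 235 CPM in Lip and 42.2, 43.3 and 76.7 CPM in Lip+ISO (a log2 change of -2.54 with SE 0.28, edgeR adjusted p = 2.07e-05). Fam13a, at a locus associated with fat distribution, had 147, 126 and 90.3 CPM in Lip and 27.3, 21.1 and 18.6 CPM in Lip+ISO (a log2 change of -2.44 with SE 0.18, edgeR adjusted p = 7.41e-07). Fign, Eepd1, Fbxo32, a ubiquitin ligase of muscle wasting, Irs3, an insulin receptor substrate, and Chst13, a sulfotransferase, completed the 10 largest falls, with log2 fold changes of -2.63, -2.44, -2.43, -2.41 and -2.33. All 10 passed with an edgeR adjusted p between 5.22e-09 and 0.000206.

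Most listed genes that cyclic AMP induces within hours rose. Of 27 listed transcription factors and early genes, 19 were called higher (70.4%) and 1 lower (3.7%). Over all tested genes the shares were 4.19% and 3.16%. The median log2 fold change of the list was 1.56 against -0.004 over all tested genes. The members were chosen with earlier results of these data known, so these values depend in part on that choice. Crem, which encodes the inducible repressor ICER of the CREB pathway, had 13.8, 15.8 and 17.9 CPM in Lip and 214, 206 and 232 CPM in Lip+ISO (a log2 change of 3.78 with SE 0.11, edgeR adjusted p = 7.89e-10). Ppargc1a, the coactivator PGC-1α, had 7.52, 8.02 and 8.3 CPM in Lip and 136, 117 and 141 CPM in Lip+ISO (a log2 change of 4.04 with SE 0.20, edgeR adjusted p = 1.61e-08). Their libraries agree closely within each group. Nr4a1 and Nr4a2, relatives of Nr4a3, spread more. Nr4a1 had 22.6, 32.8 and 38.1 CPM in Lip and 706, 387 and 370.4 CPM in Lip+ISO (a log2 change of 3.96 with SE 0.29, edgeR adjusted p = 5.4e-07), and Nr4a2 had 10.3, 11.1 and 13.5 CPM in Lip and 432, 221 and 204 CPM in Lip+ISO (a log2 change of 4.62 with SE 0.30, edgeR adjusted p = 2.08e-07). In both, the first Lip+ISO library was the highest by a wide margin. Fosl1 and Nfil3, which encode an AP-1 subunit and a bZIP repressor, rose by 3.33 and 2.81 on the log2 scale. Fosl1 overlaps Ccdc85b, so its reads are not fully its own. Fos, an early gene whose peak commonly precedes 3 h, had 5.63, 6.99 and 7.25 CPM in Lip and 18.8, 17 and 15.8 CPM in Lip+ISO (a log2 change of 1.38 with SE 0.18, edgeR adjusted p = 7.1e-05), and Cebpb, a driver of adipogenesis, had a log2 fold change of 1.43. The member that fell was Per2, named after its values were seen, with a log2 fold change of -2.32. Per1, a period gene with a known cyclic AMP response element, rose by 0.67 on the log2 scale, short of the fold required for a call.

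Promoters of these genes are shown because cyclic AMP response elements (CREs) are the sites that CREB family proteins bind. Promoters here run from 250 bases before to 50 after a gene's start in RefSeq (GRCm38.p6), and 445 of the 568 genes called higher, 325 of the 428 called lower and 10761 of all tested genes had one. The full element TGACGTCA, the same on both strands, was found in 6.07% of the promoters of genes called higher, 3.38% of those called lower, 3.50% of all tested genes and 2.03% of all promoters in the RefSeq table. The shorter TGACG on either strand, which also matches within every full element, was found in 43.8%, 28.9%, 34.3% and 23.0%, in the same order. Among the 20 early genes of the cyclic AMP list with a promoter, 2 held the full and 16 the shorter element. Capitals below mark each match, and all stretches are 5′ to 3′ on the gene's strand.
Nr4a1 (chr15:101266596-101266840, plus strand): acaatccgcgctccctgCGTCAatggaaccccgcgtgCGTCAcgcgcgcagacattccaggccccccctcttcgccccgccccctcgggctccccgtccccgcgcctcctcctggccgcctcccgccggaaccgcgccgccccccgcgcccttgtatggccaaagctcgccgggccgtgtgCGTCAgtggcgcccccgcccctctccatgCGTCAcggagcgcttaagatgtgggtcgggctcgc
Nr4a3 (chr4:48045055-48045192, plus strand): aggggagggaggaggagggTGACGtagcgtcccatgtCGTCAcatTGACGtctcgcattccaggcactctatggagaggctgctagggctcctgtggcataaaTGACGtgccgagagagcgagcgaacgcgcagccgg
Ppargc1a (chr5:51567740-51567804, minus strand): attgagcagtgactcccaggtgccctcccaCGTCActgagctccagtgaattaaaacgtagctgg
Areg (chr5:91139454-91139575, plus strand): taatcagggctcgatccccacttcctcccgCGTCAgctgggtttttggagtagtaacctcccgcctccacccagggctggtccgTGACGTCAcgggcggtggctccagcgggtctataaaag
Dio2 (chr12:90739096-90739163, minus strand): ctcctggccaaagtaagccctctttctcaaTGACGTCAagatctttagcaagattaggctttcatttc
Slc25a25 (chr2:32424179-32424246, minus strand): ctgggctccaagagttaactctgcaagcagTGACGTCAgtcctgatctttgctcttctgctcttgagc
The Nr4a1 and Nr4a3 promoters hold 4 short elements each and no full one, whereas Dio2, Areg and the mitochondrial ATP-Mg carrier gene Slc25a25 each hold a full element. In Dio2 it begins 95 bases before the start, in Areg 61 and in Slc25a25 150. Areg, an EGF family ligand, had 0, 0.0644 and 0.415 CPM in Lip and 2.47, 2.3 and 1.07 CPM in Lip+ISO, and Slc25a25 had 60.8, 56.9 and 54.8 CPM in Lip and 419, 319 and 382 CPM in Lip+ISO. Both rose without overlap between the groups (log2 fold changes 3.49 and 2.70, edgeR adjusted p = 0.00242 and 1.35e-07). Slc25a25 overlaps Naif1 in the table. A match in these windows is a description of the letters and not evidence of binding. Promoters of genes that fell hold matches too. Phf8, called lower, has a full element that begins 54 bases before the start. Pfkfb3 has 2 short elements in an annotated promoter and 1 in another.

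Genes of the signalling cascade itself changed at several levels. Of 18 tested phosphodiesterases, which degrade cyclic nucleotides, 5 were called higher (27.8%) and none lower, with the list's median at 0.30. The shares over all tested genes were 4.19% and 3.16%. Pde4d had 21.4, 23.8 and 20.8 CPM in Lip and 407, 333 and 381 CPM in Lip+ISO (a log2 change of 4.09 with SE 0.16, edgeR adjusted p = 2.79e-09). Pde10a had 5.74, 6.66 and 7.14 CPM in Lip and 52.1, 53.8 and 80.5 CPM in Lip+ISO (a log2 change of 3.25 with SE 0.18, edgeR adjusted p = 4.83e-08). These 2 had the highest folds of the family, and Pde7b, Pde4b and Pde8a rose by 2.06, 1.94 and 1.00 on the log2 scale. Pde3b, the insulin-activated form, passed with a smaller rise of 0.55 (edgeR adjusted p = 0.00978). Among 24 tested adrenergic receptors, G proteins, arrestins and RGS proteins, 3 were called higher (12.5%) and 4 lower (16.7%). Adrb3, the main β-receptor of mouse adipocytes, had 77.6, 70.6 and 91.3 CPM in Lip and 23.3, 27.7 and 37.2 CPM in Lip+ISO (a log2 change of -1.44 with SE 0.22, edgeR adjusted p = 0.000299), and Adrb1 had 9.83, 8.08 and 11 CPM in Lip and 4.89, 4.15 and 5.12 CPM in Lip+ISO (a log2 change of -1.03 with SE 0.18, edgeR adjusted p = 0.000797). Rasd1, a Ras-like protein that damps G protein signalling, fell by 2.17 on the log2 scale and Adra1a, named after its values were seen, by 1.82. Rasd1 overlaps Med9 in the table. Those called higher were Rgs2 (2.11), an accelerator of Gq signal shut-off, the arrestin family member Arrdc3 (1.26), and Arrdc4 (1.04), which was named after its values were seen.

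Downstream of the receptors, Sik1, a kinase that restrains CREB coactivators and is itself a CREB target, had 22.4, 26 and 44.9 CPM in Lip and 426, 337 and 439 CPM in Lip+ISO (a log2 change of 3.68 with SE 0.25, edgeR adjusted p = 3.04e-07). The coactivator gene Crtc3 and Creb5 were the called falls among the 17 genes of the CREB, CRTC and SIK list, at -1.03 and -1.08, the second named after its values were seen. Those falls are 11.8% of the list, beside 3.16% over all tested genes. Of 23 adenylyl cyclases, PKA subunits and anchors, 2 were called higher (8.7%, beside 4.19% over all tested genes) and none lower. They were Adcy3 (1.58, which overlaps Cenpo) and Adcy8 (2.81, at most 4 counts in a Lip library and named after its values were seen). Adcy6 and the anchor Akap1 fell short of the fold required, at -0.73 and -0.73, while Prkar1a, a regulatory subunit of PKA, rose by 0.76, with edgeR adjusted p-values of 5.04e-05, 0.0004 and 1.52e-05. None of the 15 tested antilipolytic and metabolite-sensing receptors was called. At any size 2 passed as higher and 6 as lower, beside 11.5% and 15.8% over all tested genes. Ptger3, Insr and Npr3 had log2 fold changes of -0.71, -0.57 and -0.54 and Cnr1 of 0.79, all passed with edgeR adjusted p-values between 0.00112 and 0.00481.

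Some thermogenic genes rose. Of 26 tested, 5 were called higher (19.2%) and 1 lower (3.85%), beside 4.19% and 3.16% over all tested genes. Dio2 (chr12:91962992-91976878), the deiodinase that activates thyroid hormone within the cell, had 0.996, 0.612 and 0.637 CPM in Lip and 69, 63.5 and 84.4 CPM in Lip+ISO (a log2 change of 6.60 with SE 0.23, edgeR adjusted p = 1.3e-09). Cidea, a lipid droplet protein typical of brown fat, had 2.34, 2.16 and 1.58 CPM in Lip and 9.14, 6.49 and 8.66 CPM in Lip+ISO (a log2 change of 2.00 with SE 0.32, edgeR adjusted p = 0.000401). The level of Cidea stayed under 10 CPM in every library. Ucp1, Ppargc1a and Fgf9 made up the rest of the rises, Fgf9 at 1.78 and named after its values were seen. The fall was Ebf2, a transcription factor of brown and beige precursors, at -1.11. The list's median was 0.49. At any size 6 and 2 of the 26 passed as higher and lower, beside 11.5% and 15.8% over all tested genes. The genes for oxidation of fatty acids and for respiration moved little. None of 25 fatty acid oxidation genes was called, and Cpt1a, which admits fatty acids to mitochondria, was the single member to pass, with 265, 248 and 237 CPM in Lip and 371, 353 and 409 CPM in Lip+ISO (a log2 change of 0.59 with SE 0.08, edgeR adjusted p = 0.000116). None of 86 respiratory chain and ATP synthase genes and none of 77 mitochondrial ribosomal protein genes was called. Of the former 6 passed as higher and none as lower at any size, for example Atp5d at 0.78, and of the latter 2 and 3. Both lists lie below the shares over all tested genes, 11.5% and 15.8%. The median of the respiratory list was 0.13.

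Nuclear receptors and the clock changed in both directions. Of 38 tested nuclear receptors 5 were called higher (13.2%), the 3 Nr4a genes, Vdr and Rorb (1.64). The 3 called lower (7.89%) were the retinoic acid receptor Rarg (-1.88) and the steroid receptors Nr3c1 (-1.36) and Nr3c2 (-1.19). The shares over all tested genes were 4.19% and 3.16%. Pparg, the master regulator of fat cells, was at 334, 322 and 334 CPM in Lip and 338, 349 and 395 CPM in Lip+ISO and did not pass (a log2 change of 0.13 with SE 0.08, edgeR adjusted p = 0.306). Without inhibitors its log2 change with ISO was -0.46 (edgeR adjusted p = 0.00165). The response with inhibitors minus that without was 0.58 (edgeR adjusted p = 0.0274), which passed short of the fold required for a call. In the core clock loop of 21 genes, 5 were called higher (23.8%) and 3 lower (14.3%). Arntl, the activating arm of the loop, had 22.5, 24.4 and 27.9 CPM in Lip and 103, 113 and 134 CPM in Lip+ISO (a log2 change of 2.23 with SE 0.14, edgeR adjusted p = 1.12e-07). Cry2, in the repressing arm, had 56.1, 55.2 and 58.7 CPM in Lip and 258, 167 and 205 CPM in Lip+ISO (a log2 change of 1.89 with SE 0.14, edgeR adjusted p = 8.65e-07). Per3, also of the repressing arm, had 25.2, 25.8 and 22.7 CPM in Lip and 6.75, 7.41 and 6.39 CPM in Lip+ISO (a log2 change of -1.84 with SE 0.14, edgeR adjusted p = 6.96e-07). Nr1d1, the receptor that represses Arntl, had 141, 129.9 and 135 CPM in Lip and 79.6, 67.8 and 75.3 CPM in Lip+ISO (a log2 change of -0.87 with SE 0.08, edgeR adjusted p = 2.81e-06), a fall short of the fold required for a call. Nfil3, Rorb and Bhlhe40 (1.19) were the other rises and Per2 and Dbp (-1.25) the other falls. Rorb, Nr3c1, Nr3c2, Bhlhe40 and Dbp were named after their values were seen.

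Transcription factors of the adipocyte state changed in both directions. Of 29 tested adipogenic factors, 3 were called higher (10.3%) and 5 lower (17.2%), beside 4.19% and 3.16% over all tested genes. At any size 6 passed as higher and 13 as lower, beside 11.5% and 15.8% over all tested genes. The median log2 fold change of the list was -0.27, and it was negative under every scaling tried. Klf4, which acts at the onset of adipogenesis, had 45.7, 49.4 and 65.4 CPM in Lip and 1007, 593 and 561 CPM in Lip+ISO (a log2 change of 3.75 with SE 0.26, edgeR adjusted p = 3.08e-07). Its first Lip+ISO library stood well above the other 2. Klf3 and Cebpb were the other rises, at 1.97 and 1.43. Stat5a had 93.4, 82.7 and 86.4 CPM in Lip and 26.3, 22.7 and 28.5 CPM in Lip+ISO (a log2 change of -1.76 with SE 0.10, edgeR adjusted p = 7.44e-08), and Srebf1, the lipogenic factor SREBP-1, had 243, 217 and 238 CPM in Lip and 96.8, 92.3 and 106 CPM in Lip+ISO (a log2 change of -1.24 with SE 0.09, edgeR adjusted p = 4.85e-07). Srebf1 overlaps Rai1 in the table. Ebf2, Klf15 (-1.27) and Nr3c1 were the remaining called falls, Klf15 being named after its values were seen. Cebpa, which maintains the adipocyte state, fell by 0.91 (edgeR adjusted p = 0.000878).

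At the lipid droplet, a gene of triglyceride synthesis and an inhibitor of lipolysis rose in Lip+ISO and another inhibitor fell. Hilpda, which like G0s2 inhibits ATGL, had 10.9, 14.4 and 18.4 CPM in Lip and 164, 136 and 149 CPM in Lip+ISO (a log2 change of 3.36 with SE 0.18, edgeR adjusted p = 4.14e-08). Dgat1, which adds the last acyl chain of triglyceride, had 241, 214 and 234 CPM in Lip and 1164, 1296 and 1728 CPM in Lip+ISO (a log2 change of 2.60 with SE 0.14, edgeR adjusted p = 4.83e-08). Hilpda and G0s2 therefore moved in opposite directions in all 3 libraries of each group. With Cidea, these are the called genes among 20 lipolysis and droplet genes. Of the 20, 3 were higher (15.0%) and 1 lower (5.0%), beside 4.19% and 3.16% over all tested genes. The genes of ATGL and HSL were near level. Pnpla2 (ATGL) was at 3213, 2792 and 3189 CPM in Lip and 2753, 3031 and 4226 CPM in Lip+ISO. Its log2 fold change of 0.12 did not pass. Lipe (HSL) was at -0.44 (edgeR adjusted p = 0.0416, not passed when any of 5 of the 6 libraries was left out). The droplet coat genes Plin1 and Plin2 had log2 fold changes of -0.33 and 0.11 and did not pass, Plin1 passing with the replicate block (edgeR adjusted p = 0.0173). Among 26 genes of fatty acid and triglyceride synthesis, Dgat1, Agpat9 (1.03) and Lpin1 (1.01) were called higher and Srebf1 and Mlxipl (-1.07) lower, Lpin1 and Mlxipl being named after their values were seen. These are 11.5% and 7.69% of that list. Acacb, the carboxylase that controls fatty acid oxidation, fell by 0.75 (edgeR adjusted p = 0.00032), and Fasn, fatty acid synthase, had -0.33 and passed only with the replicate block (edgeR adjusted p = 0.0149). Of 19 fatty acid uptake genes the acyl-CoA synthetases Acsl4 (1.88) and Acsl3 (1.67, overlapping Utp14b) were called higher, while Lpl was at 10329, 8792 and 7923 CPM in Lip and 8398, 9742 and 10502 CPM in Lip+ISO (log2 fold change 0.08, not passed).

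Of 34 tested PPAR target genes, 1 was called higher (2.94%) and 2 lower (5.88%), counts near the shares over all tested genes (4.19% and 3.16%). The list's median lay within 0.1 of 0 and changed sign when libraries were scaled by totals. Angptl4, an inhibitor of lipoprotein lipase and a PPAR target, had 678, 769 and 794 CPM in Lip and 118, 175 and 153 CPM in Lip+ISO (a log2 change of -2.33 with SE 0.14, edgeR adjusted p = 8.02e-08). Pdk4, the kinase that shuts off pyruvate dehydrogenase, had 126, 113 and 162 CPM in Lip and 42.7, 45.8 and 72.5 CPM in Lip+ISO (a log2 change of -1.32 with SE 0.21, edgeR adjusted p = 0.000423). Every Lip+ISO library lay below every Lip library for both genes. The rise was Acot3, a peroxisomal thioesterase, from at most 3.44 CPM to 5.00 to 8.58 CPM (1.32), and its neighbour Acot4 had 0.41 (edgeR adjusted p = 0.0473). Acot3 and Acot4 are close paralogs whose reads could be split uncertainly.

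Part of the sterol synthesis genes rose. Of 25 tested genes of the mevalonate pathway and its SREBP regulators, 5 were called higher, 12 passed as higher at any size and none passed as lower. Pmvk (chr3:89263040-89272931), phosphomevalonate kinase, had 37.9, 33.4 and 41.2 CPM in Lip and 404, 454 and 488 CPM in Lip+ISO (a log2 change of 3.58 with SE 0.14, edgeR adjusted p = 2.79e-09). Mvk, mevalonate kinase, the step before it, had 38.3, 34.8 and 37.8 CPM in Lip and 165, 185 and 199.5 CPM in Lip+ISO (a log2 change of 2.31 with SE 0.13, edgeR adjusted p = 7.71e-08). These 2 consecutive kinases were the largest rises of the pathway and the groups did not overlap. Hsd17b7 and Cyp51, enzymes of the later sterol steps, had 1.31 and 1.12 (edgeR adjusted p = 5.47e-06 and 2.04e-06). The median of the list was 0.25, and 13 of the 25 genes did not pass. Hmgcs1, the entry step, was not analysed here.

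A few genes of glucose use were called. Of 32 glucose uptake and glycolysis genes, Hk2 and Pdp2 were called higher (6.25%) and Pfkfb3 and Pdk4 lower (6.25%). These shares are not far from the 4.19% and 3.16% over all tested genes. At any size, 12 passed as higher and 3 as lower, beside 11.5% and 15.8% over all tested genes. Hk2, the hexokinase that traps glucose, had 231, 213 and 294 CPM in Lip and 789, 550.4 and 615 CPM in Lip+ISO (a log2 change of 1.41 with SE 0.15, edgeR adjusted p = 2.02e-05). Pdp2, the phosphatase that opposes Pdk4 at pyruvate dehydrogenase, had 14.8, 15.8 and 21.2 CPM in Lip and 52, 42.1 and 74.6 CPM in Lip+ISO (a log2 change of 1.70 with SE 0.22, edgeR adjusted p = 9.27e-05). Pdp2 thus rose in the libraries in which Pdk4 fell. Slc16a1, the lactate transporter MCT1, rose by 0.76 (edgeR adjusted p = 1.24e-05). In glycogen metabolism, 3 of the 4 called genes of 23 tested were targeting subunits of protein phosphatase 1, and all 3 were higher, Ppp1r3g (7.15), Ppp1r3c (2.08) and Ppp1r3b (1.10). Ppp1r3c had 17.6, 15.4 and 12.6 CPM in Lip and 75.4, 63.2 and 54.5 CPM in Lip+ISO (a log2 change of 2.08 with SE 0.17, edgeR adjusted p = 1.87e-06). The called fall was Epm2a (-1.01), laforin, which like Ppp1r3b was named after its values were seen. The glycogen calls are 13.0% higher and 4.35% lower. Within insulin signalling, of 29 tested, Irs2, an insulin receptor substrate and CREB target, had 224, 159 and 174 CPM in Lip and 959, 617 and 868 CPM in Lip+ISO (a log2 change of 2.14 with SE 0.22, edgeR adjusted p = 1.36e-05), and Irs3 had 41.4, 39.7 and 45.1 CPM in Lip and 6.79, 8.04 and 8.98 CPM in Lip+ISO (a log2 change of -2.41 with SE 0.13, edgeR adjusted p = 3.98e-08). These substrate genes moved in opposite directions without overlap. Pik3r1, the regulatory subunit of PI3-kinase, fell by 1.79 and Trib3, an inhibitor of AKT, rose by 2.01 on the log2 scale. The called genes of this list were 2 higher and 2 lower (6.9% each), beside 4.19% and 3.16% over all tested genes.

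Early genes of the ERK pathway were split. Of 25 tested, 6 were called higher (24.0%) and 2 lower (8.0%), beside 4.19% and 3.16% over all tested genes. At any size 9 passed in each direction, beside 11.5% as higher and 15.8% as lower over all tested genes. Dusp5, a phosphatase of nuclear ERK, had 7.66, 8.34 and 9.6 CPM in Lip and 47.6, 28.1 and 41.9 CPM in Lip+ISO (a log2 change of 2.20 with SE 0.17, edgeR adjusted p = 9.73e-07), and Ier3 had 2.39. Egr1, a zinc finger gene driven by ERK and SRF, had 22.2, 25.6 and 21.3 CPM in Lip and 47.1, 38.1 and 38.1 CPM in Lip+ISO (a log2 change of 0.83 with SE 0.14, edgeR adjusted p = 0.000482), short of the fold required. Myc had 54, 58.7 and 61.8 CPM in Lip and 22.1, 29.3 and 29.1 CPM in Lip+ISO (a log2 change of -1.12 with SE 0.11, edgeR adjusted p = 7.1e-06). All 3 Lip+ISO libraries of Egr1 were above and all 3 of Myc were below the Lip range. The other called fall was Spry1, a feedback inhibitor of receptor tyrosine kinases, at -1.69 and named after its values were seen.

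Secreted factors and their receptors followed no common direction. Among 24 adipokines, Il6 (2.55) and Metrnl (1.92) were called higher and Lep and Angptl4 lower. These are 8.33% in each direction, beside 4.19% and 3.16% over all tested genes. Lep, leptin, had 168, 128 and 110.0 CPM in Lip and 37.8, 48.8 and 40.7 CPM in Lip+ISO (a log2 change of -1.67 with SE 0.25, edgeR adjusted p = 0.00024), whereas Adipoq, adiponectin, was at 2836, 2345 and 3246 CPM in Lip and 1829, 2351 and 3594 CPM in Lip+ISO and did not pass (log2 fold change -0.12). Among 23 cytokines and chemokines, Il6 and Il11 (1.92) were higher and Csf1 (-1.25) and Cxcl10 (-1.31, overlapping Art3) lower, 8.7% in each direction. In cytokine signalling, of 29 genes tested, Socs3, the feedback inhibitor of STAT3, had 11.6, 12.3 and 12.8 CPM in Lip and 180.1, 145 and 153 CPM in Lip+ISO (a log2 change of 3.70 with SE 0.12, edgeR adjusted p = 9.61e-10). Its rise was the largest of the 4 called higher there (13.8%), with Bcl3 (2.41, named after its values were seen), Nfkbiz (1.99) and Ptgs2 (1.59). In that list 1 gene was called lower (3.45%). Ptgs2, the inducible cyclooxygenase, and Slco2a1 (1.11), a prostaglandin transporter, were the 2 called among 20 prostaglandin genes (10.0%). Of 29 angiogenic and EGF family genes, Areg, Fgf2 and Fgf9 were called higher and Erbb2 (-1.19, overlapping Mien1) and Egf (-1.70, named after its values were seen) lower. These are 10.3% and 6.9% of that list. Fgf2 had 39.9, 26.1 and 29.1 CPM in Lip and 125, 103 and 157 CPM in Lip+ISO (a log2 change of 2.02 with SE 0.19, edgeR adjusted p = 6.48e-06), and Vegfa rose by 0.74 (edgeR adjusted p = 0.00557).

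Single genes of developmental pathways were called in either direction. In the Wnt pathway, of 29 tested, Wnt9b had 1.31, 0.901 and 1.19 CPM in Lip and 32.8, 37.9 and 56 CPM in Lip+ISO (a log2 change of 5.22 with SE 0.34, edgeR adjusted p = 2.28e-07), and Wnt11 had 2.16, 2.87 and 5.56 CPM in Lip and 34.3, 33.8 and 47.7 CPM in Lip+ISO (a log2 change of 3.43 with SE 0.28, edgeR adjusted p = 1.54e-06). The receptors Fzd4 and Fzd2 fell by 1.33 and 1.76, and the ligands Wnt9a and Wnt5a, named after their values were seen, by 1.07 and 1.87. The pathway's called genes were therefore 2 higher (6.9%) and 4 lower (13.8%). Of 47 genes of the TGF-β, BMP and activin pathway 2 were called higher, Bambi (1.25) and Gdf3, and 3 lower, shares of 4.26% and 6.38% beside 4.19% and 3.16% over all tested genes. Gdf3 had 3, 0 and 0 counts in Lip and 9, 17 and 35 in Lip+ISO, a ratio of pooled counts of 23.6 (95% interval 7.69 to 117). Both were named after their values were seen. Smad9, Smad6 and Acvr1b, an effector, an inhibitory Smad and a receptor, had -2.25, -1.70 and -1.54. Among 45 collagens and matrix enzymes, Adamts9 had 22.4, 24.4 and 27.4 CPM in Lip and 261, 255 and 284 CPM in Lip+ISO (a log2 change of 3.43 with SE 0.13, edgeR adjusted p = 3.02e-09). Adamts4 (2.19) and Mmp12 (1.33, named after its values were seen) were also called higher and Adamts5 (-1.61) and Mmp11 (-1.32) lower, so that members of the same protease families moved in opposite directions. Of this list 6.67% were called higher and 4.44% lower, near the shares over all tested genes.

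Many protein folding and stress genes rose, most by less than the fold required for a call. Of 33 unfolded protein and integrated stress response genes 15 passed as higher and 1 as lower at any size. The shares over all tested genes were 11.5% and 15.8%. The 4 called, all higher (12.1%, beside 4.19% over all tested genes), were Trib3 (2.01), Atf3 (1.62, named after its values were seen), Ddit4 (1.55) and Ppp1r15b (1.38). Atf4, the integrated stress factor, had 205, 257 and 281 CPM in Lip and 412, 383 and 437 CPM in Lip+ISO (a log2 change of 0.73 with SE 0.12, edgeR adjusted p = 0.000596). Hspa5, the chaperone BiP, had 1037, 1213 and 1599 CPM in Lip and 1686, 2124 and 2649.9 CPM in Lip+ISO (a log2 change of 0.75 with SE 0.21, edgeR adjusted p = 0.0176). The third library was the highest of each group for Hspa5, and the first Lip+ISO library was only slightly above the third Lip library. Ddit3 (CHOP), whose span overlaps Mars, had a log2 fold change of -0.13 and did not pass. Of 20 heat shock proteins 12 passed as higher and 2 as lower at any size, and 5 were called, all higher (25.0%). Hsph1, an HSP110 chaperone, had 61.5, 66.3 and 80.1 CPM in Lip and 493, 547 and 675 CPM in Lip+ISO (a log2 change of 3.04 with SE 0.13, edgeR adjusted p = 7.15e-09), and the cochaperone gene Bag3 had 1.92. Hspb8 (1.11) and, named after their values were seen, Hspa1a (1.29) and Dnajb1 (1.08) were the others.

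Among 33 antioxidant and glutathione genes, 4 were called, all higher (12.1%, beside 4.19% over all tested genes). Gclc, the rate-limiting subunit of glutathione synthesis, had 118, 114 and 112 CPM in Lip and 740.5, 511 and 509.8 CPM in Lip+ISO (a log2 change of 2.35 with SE 0.14, edgeR adjusted p = 7.07e-08), and Srxn1, sulfiredoxin, had 794, 721 and 713 CPM in Lip and 2924, 1665 and 1731 CPM in Lip+ISO (a log2 change of 1.50 with SE 0.18, edgeR adjusted p = 3.73e-05). The regulator Nfe2l2 (1.11) and Mt2 (1.07, named after its values were seen) were the others. Nqo1 had 124, 97 and 35.5 CPM in Lip and 316, 124 and 54.8 CPM in Lip+ISO and did not pass, its first Lip+ISO library being far above the rest. Tiparp (2.06) was the single called gene among 9 aryl hydrocarbon receptor targets, and Cyp1a1 (0.95) passed only with the replicate block (1.03, edgeR adjusted p = 0.0221). Of 27 ion channel and transporter genes 5 were called higher, Slc25a25, the amino acid transporters Slc38a2 (1.64), Slc7a5 (1.47) and Slc3a2 (1.37), and the bicarbonate transporter Slc4a4 (1.45), and Slc16a10 (-1.36) was the called fall, Slc7a5 and Slc16a10 being named after their values were seen. These are 18.5% and 3.7% of that list, beside 4.19% and 3.16% over all tested genes. Eprs had 286, 289.6 and 289 CPM in Lip and 1209.8, 1160.1 and 1266 CPM in Lip+ISO (a log2 change of 2.07 with SE 0.09, edgeR adjusted p = 5.24e-09), whereas no other of 20 aminoacyl-tRNA synthetases was called. Part of the proteasome and ribosome genes rose slightly. At any size 18 of 38 proteasome subunits and 21 of 82 cytosolic ribosomal proteins passed as higher and none as lower. The shares over all tested genes were 11.5% and 15.8%. Psma7, with 119, 132 and 135 CPM in Lip and 209.7, 201 and 201 CPM in Lip+ISO (a log2 change of 0.66 with SE 0.07, edgeR adjusted p = 1.51e-05), was the proteasome subunit with the smallest adjusted p, and medians were 0.21 and 0.24. The called ribosomal gene, Rpl9 (1.36), was counted at 1.03 to 3.65 CPM and, like other ribosomal genes, shares sequence with pseudogenes.

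**Figure D2:**
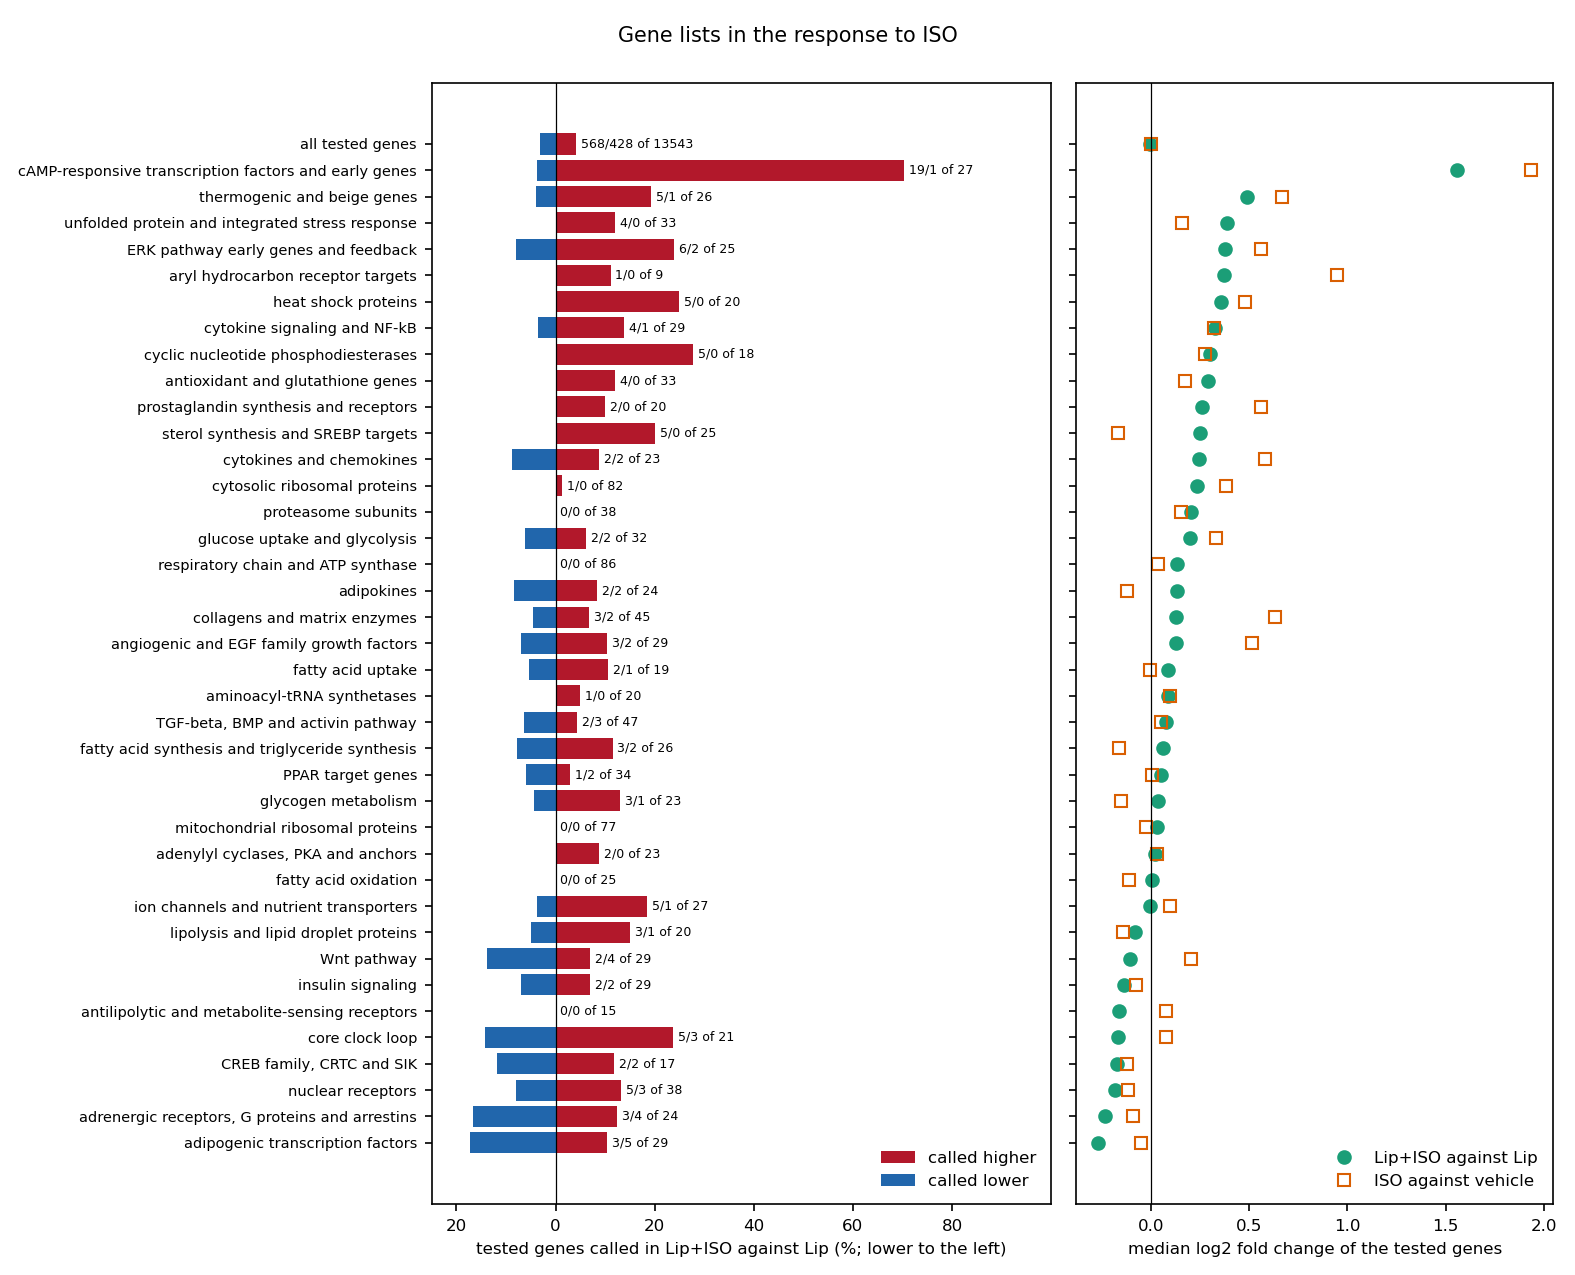
Left, the share (%) of the tested genes of each list that were called higher (red, to the right) or lower (blue, to the left) in Lip+ISO against Lip, with the numbers higher/lower of tested. Right, the median log2 fold change of the same genes in Lip+ISO against Lip (filled circles) and in ISO against vehicle (open squares). The cyclic AMP list stands at 19 of 27 called higher, against 568 of 13543 over all tested genes. The lists were chosen with earlier results of these data known. Several lists have their medians on opposite sides of 0, among them the sterol, core clock, Wnt and adipokine lists.

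The response without inhibitors (ISO against vehicle, no library in common) served to show which genes also responded when lipolysis was intact. There 769 genes were called higher (5.68%) and 244 lower (1.80%). Without replicate 3 of every group the count of genes higher was 431. Of the 568 genes called higher with inhibitors, 383 were also called higher without (67.4% of the first list and 49.8% of the second, or 62.0% and 71.2% without replicate 3), 97 more passed in the same direction short of the fold, and 559 had the same sign. Of the 428 called lower, 163 were also called lower without (38.1% and 66.8% of the lists), 168 more passed in the same direction, and 416 had the same sign. The 568 genes had a median log2 fold change of 1.77 with and 1.48 without inhibitors, and the 428 genes -1.29 with and -0.89 without. Since these genes were chosen for their change with inhibitors, their larger median there is fixed in part by the choice. The genes retained most evenly were named by how little the difference of the responses could be. Gfod1, Sertad1, a regulator of the cell cycle, Lmbr1, Litaf and March3 rose by 1.10 to 1.50 with and 1.01 to 1.41 without inhibitors. For Lmbr1 the 95% interval of the difference was -0.29 to 0.29. Dab2ip, Pik3r1, Znf512b, Klhl24 and Phf8 fell in both, Pik3r1 by 1.79 in both comparisons with an interval of -0.39 to 0.39.

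**Figure D3:**
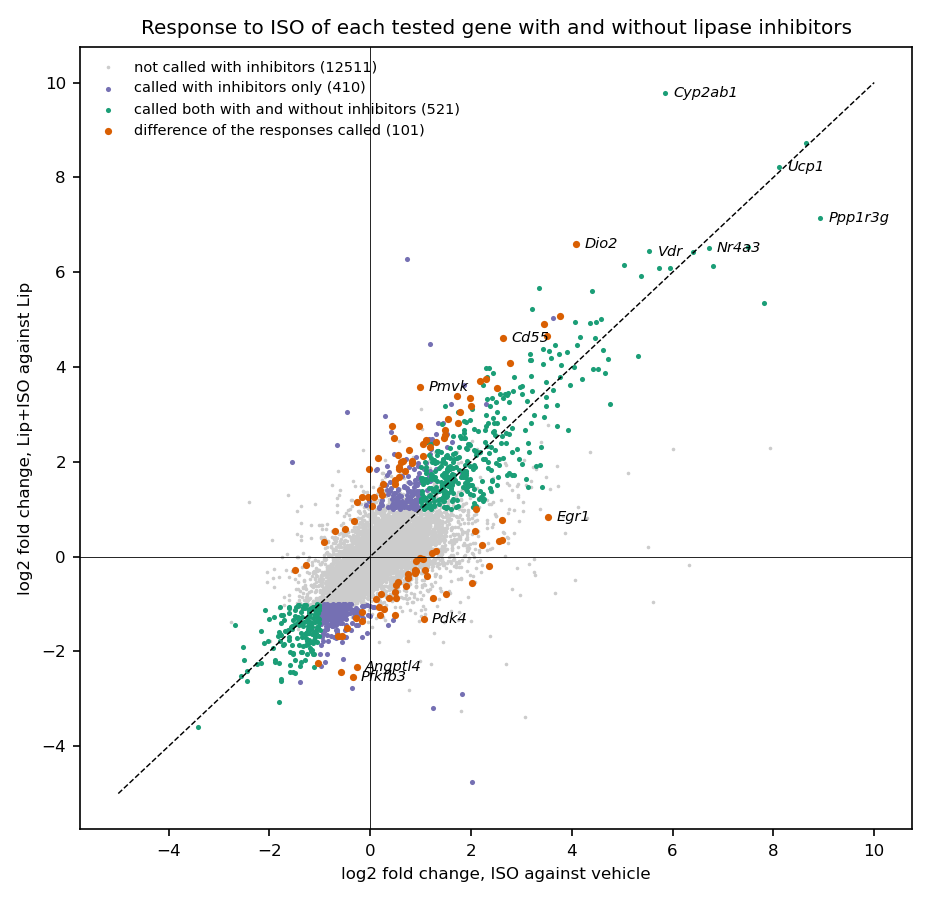
Log2 fold change of each of the 13543 tested genes in ISO against vehicle (horizontal) and in Lip+ISO against Lip (vertical), with the line of equal response dashed. Orange points are the 101 genes whose responses differed by the interaction test. Dio2, Pmvk and Cd55 lie above the dashed line and Egr1, Pdk4, Angptl4 and Pfkfb3 below it. Grey points were called neither with inhibitors nor in that test, and they include genes called only in ISO against vehicle.

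The difference of the 2 responses was tested directly, as the response with inhibitors minus that without. It was called positive for 55 genes (0.406%) and negative for 46 (0.340%), and passed at any size for 122 (0.901%) and 98 (0.724%). Blocking on replicate changed these calls to 71 and 131, and without the second replicate of every group they became 6 and 9, without the third 17 and 17. For 488 of the 568 genes called higher and 396 of the 428 called lower with inhibitors the difference did not pass. Among the 568, it passed in the direction of a larger rise with inhibitors for 79 and a smaller rise for 1. Among the 428, it passed as a larger fall for 32 and a smaller fall for none. Of the 55 positive genes, 49 were called higher with inhibitors. Of the 46 negative genes, 15 were called lower with inhibitors, 1 was called higher, and 17 were called higher without them.

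Pmvk had the largest positive difference under the naming rule. It had 38.5, 35.4 and 44.5 CPM in vehicle and 87.7, 81.9 and 65.5 CPM in ISO, beside 33.4 to 41.2 CPM in Lip and 404 to 488 CPM in Lip+ISO (difference of log2 fold changes 2.59 with SE 0.18, edgeR adjusted p = 3.21e-05). The vehicle and Lip levels of Pmvk overlapped, whereas every Lip+ISO library lay far above every ISO library. Dio2 had 0.663, 0.545 and 0.431 CPM in vehicle and 8.06, 8.55 and 11.8 CPM in ISO (difference 2.52 with SE 0.37, edgeR adjusted p = 0.00392). Xrcc2, a DNA repair gene, had 8.14, 7.73 and 7.53 CPM in Lip and 45.2, 30.3 and 57.7 CPM in Lip+ISO against 9.19, 8.31 and 7.01 CPM in vehicle and 10.3, 11.2 and 12.6 CPM in ISO (difference 2.03 with SE 0.28, edgeR adjusted p = 0.00273), and Cd55, a complement regulator, had 19.6, 16.1 and 15.3 CPM in Lip and 305, 368 and 573 CPM in Lip+ISO against 17.3, 14.9 and 17.5 CPM in vehicle and 97.7, 88.9 and 124 CPM in ISO (difference 1.97 with SE 0.29, edgeR adjusted p = 0.00422). The Lip levels of both genes overlapped those of vehicle, and their Lip+ISO levels lay above all ISO libraries. Dct, with under 6 CPM in all libraries, had a difference of 2.33 (edgeR adjusted p = 0.0408), which was lost under 13 of 20 alternatives. Smaller positive differences were called for Ppp1r3c (1.94), Ackr3 (1.65), a scavenging chemokine receptor, Socs3 (1.52), Arrdc3 (1.42), Fgf2 (1.37), Cry2 (1.32), Pde4d (1.31), Hsph1 (1.25), Trib3 (1.18) and Cth (1.09). In the sterol list the difference passed as positive for 7 of 25 genes and as negative for none, and the median of the list was 0.25 with and -0.17 without inhibitors. Besides Pmvk these were Mvk (1.12), Hsd17b7 (1.08), Cyp51 (0.91) and, named after their values were seen, Stard4 (1.10), Msmo1 (0.83) and Mvd (0.60).

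Egr1 had the most negative difference under the same rule. It had 27.6, 36.9 and 32.5 CPM in vehicle and 431, 329.7 and 354 CPM in ISO, a rise of 3.52, beside a rise of 0.83 with inhibitors (difference -2.69 with SE 0.19, edgeR adjusted p = 3.21e-05). Pdk4 had 352, 383 and 530.4 CPM in vehicle and 883, 799.6 and 956 CPM in ISO and so rose without and fell with inhibitors (difference -2.38 with SE 0.29, edgeR adjusted p = 0.00171). The Lip libraries of Pdk4 also started lower, at 113 to 162 CPM against 352 to 530 CPM in vehicle. Ccrn4l, nocturnin, a clock-controlled gene, had 65.1, 68.4 and 86.7 CPM in Lip and 39.7, 37.6 and 43.3 CPM in Lip+ISO against 96.9, 104 and 125 CPM in vehicle and 283, 224 and 269 CPM in ISO (difference -2.12 with SE 0.19, edgeR adjusted p = 0.000177), and Map3k8, a kinase upstream of ERK, had 5.84, 8.92 and 7.39 CPM in Lip and 3.03, 4.63 and 5.2 CPM in Lip+ISO against 6.92, 8.06 and 7.36 CPM in vehicle and 21.1, 18.3 and 24 CPM in ISO (difference -2.29 with SE 0.29, edgeR adjusted p = 0.0019). Both rose without and fell with inhibitors, each of the 4 changes passing at any size. Pfkfb3 and Angptl4 fell with inhibitors and did not pass without (-0.35 and -0.27, Angptl4 passing with the replicate block at an edgeR adjusted p of 0.0227), with differences of -2.19 and -2.06 (edgeR adjusted p = 0.0114 and 0.000195). Fam13a fell in both, further with inhibitors (difference -1.86 with SE 0.25, edgeR adjusted p = 0.00258). Nr1d1 had 149.9, 153 and 149.8 CPM in vehicle and 229, 207 and 212 CPM in ISO and rose without inhibitors (difference -1.39 with SE 0.11, edgeR adjusted p = 5.05e-05), and Myc passed without them only with the replicate block (0.28, edgeR adjusted p = 0.00857; difference -1.39 with SE 0.15, edgeR adjusted p = 0.000761). For Fos the difference passed only with the replicate block (-1.02, edgeR adjusted p = 0.0316, against 0.0594 without it). In that fit Adrb3 also passed, its fall being smaller with inhibitors (difference 1.21, edgeR adjusted p = 0.00901). The level before ISO was 152 to 236 CPM in vehicle and 70.6 to 91.3 CPM in Lip. The blocked fit also passed larger rises of Cyp2ab1 (4.00, edgeR adjusted p = 0.0101, a value that rests on the 3 pooled counts in Lip), Fosl1 (1.01), Pdp2 (1.05) and Wnt9b (2.01) and larger falls of Adamts6 (-1.28) and Chst13 (-1.21), the last 5 with edgeR adjusted p-values of 0.0174, 0.0168, 0.0482, 0.0382 and 0.00812. None of these 6 passed without the block.

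**Figure D4:**
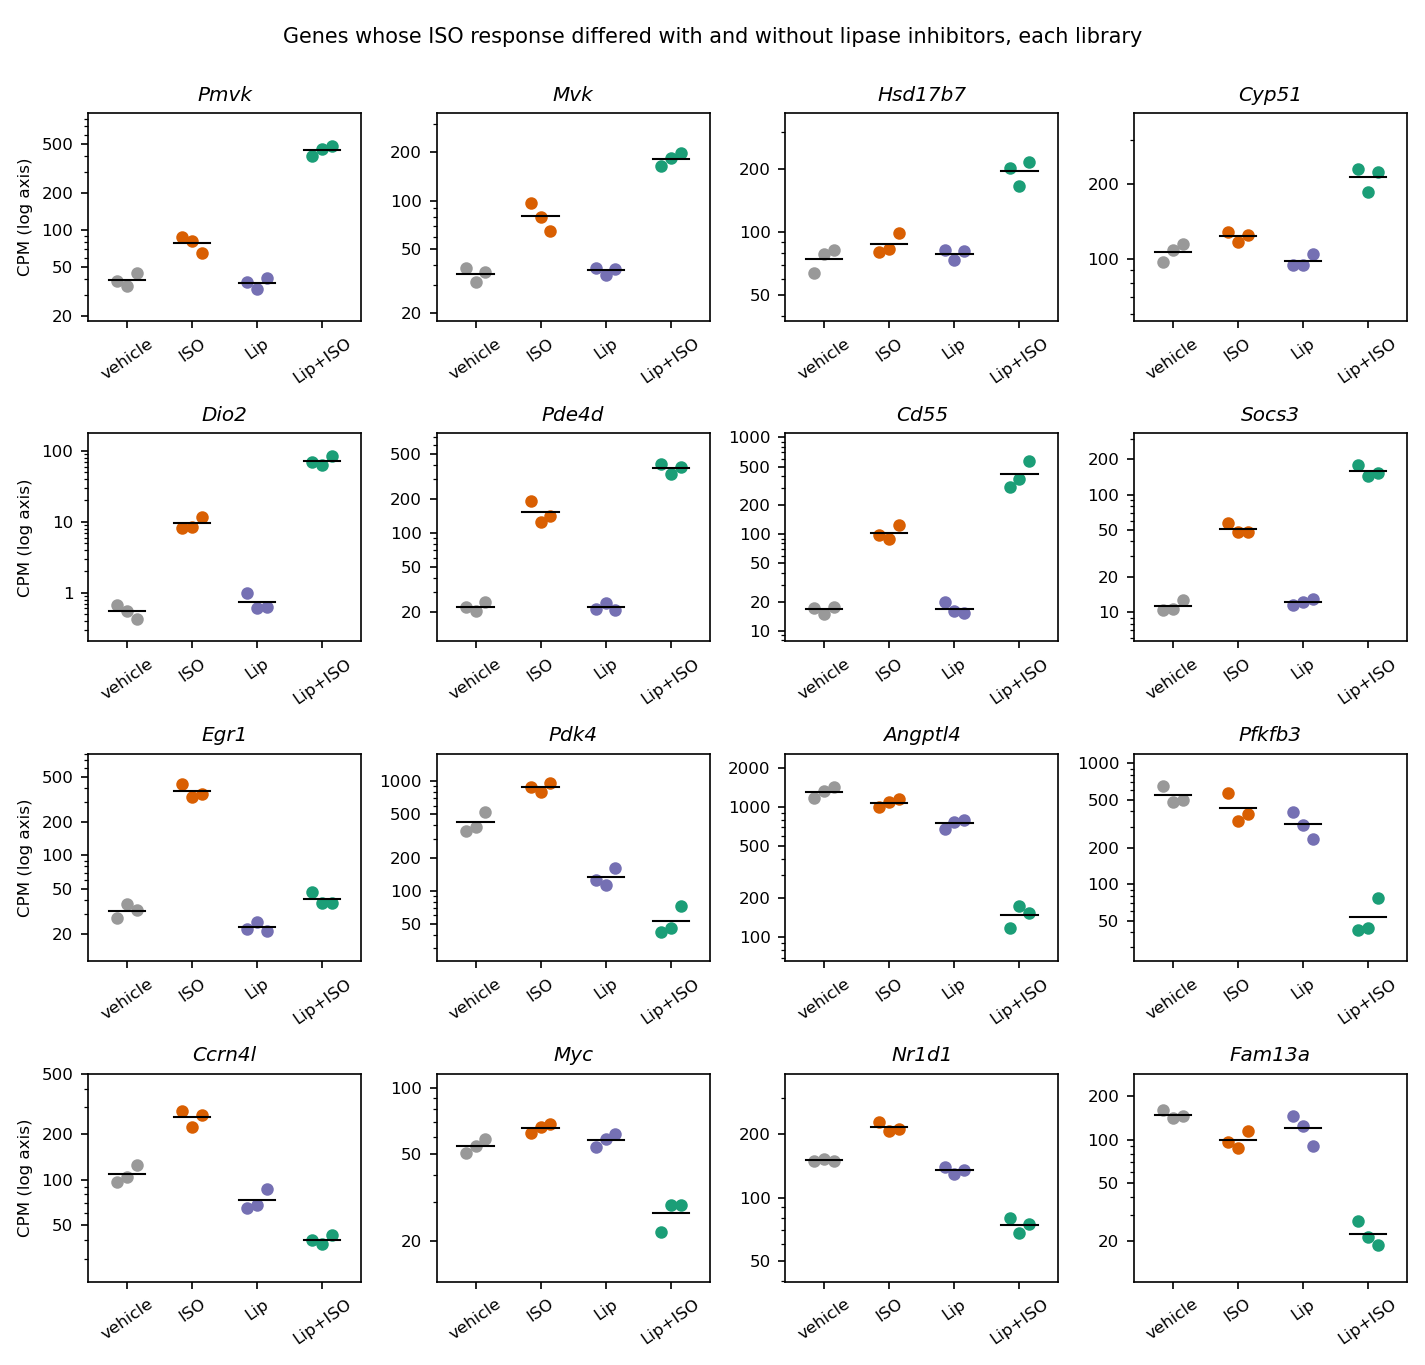
Expression in CPM (log axis) of 16 genes in the 3 libraries of each of the 4 groups, with a point for each library and a line at each group mean. In the upper 2 rows Lip+ISO is the highest group, and in the lower 2 rows Lip+ISO lies below ISO, the 3 libraries of Egr1 at 38.1 to 47.1 CPM against 330 to 431 CPM.

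The study grouped genes that ISO activated in brown adipocytes into 4 clusters by their need for lipolysis, and these were followed here. The clusters come from brown adipocytes and used none of the white adipocyte libraries. C1 holds genes whose activation needed lipolysis, and C2 genes that responded more strongly without it. C3 holds genes that needed it in part, and C4 genes that either signal activated. With inhibitors, 22 of 144 tested C1 genes were called higher and 7 lower, 58 of 101 C2 genes higher and none lower, 52 of 185 C3 genes higher and 2 lower, and 57 of 174 C4 genes higher and 2 lower. As shares these were 15.3%, 57.4%, 28.1% and 32.8% higher and 4.86%, 0%, 1.08% and 1.15% lower, beside 4.19% and 3.16% over all tested genes. The medians were 0.26, 1.32, 0.48 and 0.64 with inhibitors and 0.49, 1.36, 0.61 and 0.56 without, in the order C1 to C4. The difference of the responses passed as negative for 8 genes and as positive for 1 in C1, and as positive for 11 and negative for 1 in C2. In C3 it was 4 positive and 8 negative, and in C4 7 and 1. Over all tested genes 0.901% passed as positive and 0.724% as negative. In C2, Ugdh, which makes UDP-glucuronic acid, had 252, 256 and 244 CPM in Lip and 2545, 2491 and 3182 CPM in Lip+ISO (a log2 change of 3.45 with SE 0.10, edgeR adjusted p = 7.89e-10), and Ackr3 had 9.38, 10.0 and 12 CPM in Lip and 111, 97.5 and 119 CPM in Lip+ISO (a log2 change of 3.38 with SE 0.13, edgeR adjusted p = 2.79e-09). In C1, Cntfr, a cytokine receptor, had 1.03, 1.64 and 2.38 CPM in Lip and 45.2, 30.7 and 36.7 CPM in Lip+ISO (a log2 change of 4.46 with SE 0.28, edgeR adjusted p = 1.43e-07), Maff and Ifrd1 rose by 1.69 and 1.63, and Cth, cystathionine γ-lyase, by 1.67. These C1 members were named for their small adjusted p with inhibitors, so their change there was fixed by the choice. For Cntfr, Maff and Ifrd1 the difference from the response without inhibitors did not pass, which does not show equal responses. Without inhibitors, 35, 56, 58 and 61 genes of C1 to C4 were called higher (24.3%, 55.4%, 31.4% and 35.1%). The share over all tested genes there was 5.68%. In C1, 1 gene was called lower without inhibitors, and in the other clusters none. In C3, Slc25a33 (1.80) and in C4 the homeobox gene Dlx3, with 2.13, 2.8 and 1.58 CPM in Lip and 51.7, 53.2 and 55.9 CPM in Lip+ISO (a log2 change of 4.63 with SE 0.20, edgeR adjusted p = 5.22e-09), were among those with the smallest adjusted p.

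**Figure D5:**
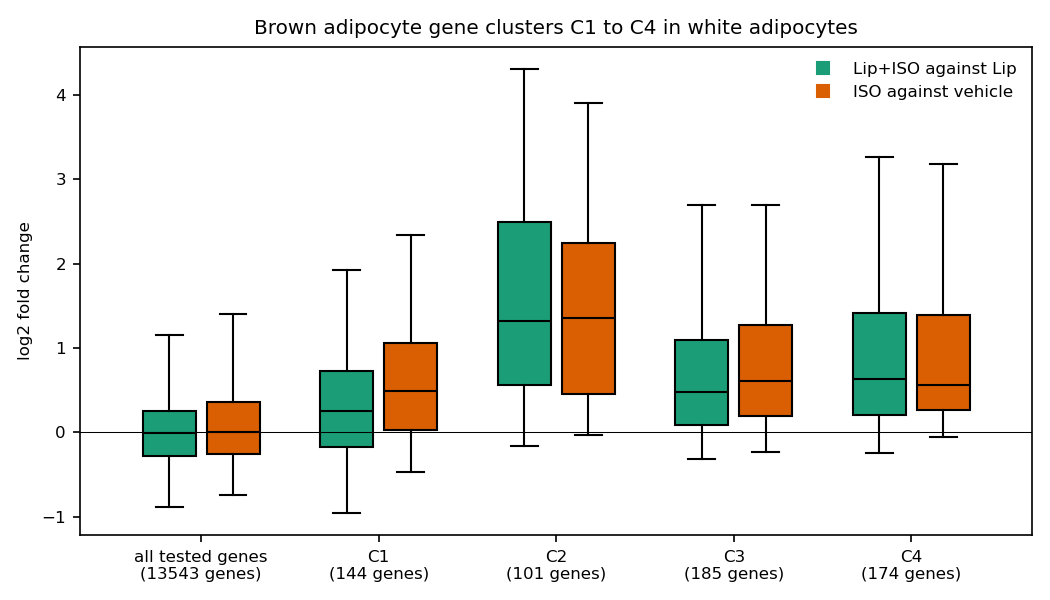
Log2 fold changes of all tested genes and of the brown adipocyte clusters C1 to C4 in Lip+ISO against Lip (green) and in ISO against vehicle (orange). Boxes span the quartiles with a line at the median and whiskers from the 5th to the 95th percentile, and the C2 medians of 1.32 and 1.36 are the highest while C1 has 0.26 with and 0.49 without inhibitors.

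Markers of other cells were present in the cultures, at summed levels far below that of the adipocyte markers. What passed among them depended in part on the replicate block. Of 8 macrophage markers Cd14 was called (1.61) and Csf1r passed (0.87), the summed level being 55.5 to 61 CPM in Lip and 69.7 to 119 CPM in Lip+ISO. None of 8 endothelial markers passed, with sums of 62.5 to 198 and 85 to 249.7 CPM, the second library being the highest of each group. In the fit blocked on replicate 5 of the 8 endothelial markers passed as higher in Lip+ISO, short of the fold required, among them Tek (0.84), Cdh5 (0.78), Esam (0.64) and Tie1 (0.58), with edgeR adjusted p-values of 0.00405, 0.00834, 0.0203 and 0.0208. The part of endothelial cells in other rises was not tested. None of 8 fibroblast markers passed, with sums of 805 to 924 and 634 to 1042 CPM, and with the replicate block 2 passed as higher, Pi16 being called (1.63, edgeR adjusted p = 0.0406). Of 6 mesothelial markers Wt1 was called (1.49), with sums of 14.4 to 59.8 and 41.9 to 51.8 CPM. Of 6 smooth muscle markers Acta2 was called (-1.31), with sums of 255 to 347 and 130.0 to 208 CPM. The summed level of the 2 tested epididymal epithelium markers, Cdh1 and Epcam, was 0.0343 to 24.7 CPM in Lip and 0.526 to 0.874 CPM in Lip+ISO. Cdh1 had 0, 0.451 and 18.8 CPM in Lip and 0.404, 0.111 and 0.199 CPM in Lip+ISO, so that its log2 fold change of -4.75 rests on the third Lip library, without which it was 0.05 and did not pass. Krt19 and Epcam were also highest in that library, at 24.8 and 5.87 CPM. Of 6 T and B cell and 4 erythrocyte markers 1 each was tested, at under 1 CPM in all 6 libraries. Il6, Ptgs2 and the cytokine genes are also expressed by macrophages and stromal cells, and the part of these cells in their rises was not tested.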

How the data were processed

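RNA of 12 cultures, 3 in each of 4 groups, was sequenced. The authors mapped reads to mm9 with STAR (2.4.2a) and summarised them per gene with HOMER, allowing a single read per position, which can understate highly expressed genes, and with iRNA-seq. The values the authors deposited are raw counts. Whether counting used strand is not given in the sources used here, so overlapping genes are uncertain. Of 20295 genes, 13543 passed filterByExpr and were tested with edgeR (4.0.16, R 4.3.3) by the quasi-likelihood test with TMM scaling and 1 mean per group over all 12 libraries, with Benjamini-Hochberg adjustment. The scripts were tested on simulated data. The difference of responses was a contrast in the same fit. DESeq2 (1.42.0), other scalings, no filter, no minimum fold, a replicate block, fits of 2 groups and left-out libraries were alternatives. Same-numbered libraries deviated together (correlations 0.140 to 0.331 over all 6 pairs), so the numbers were taken as pairing them. The main fit did not use this pairing, and only the alternative with the replicate block did. Values are from the main fit unless the block is named. Named genes were the 10 largest non-overlapping rises and falls of at least 5 CPM, the 5 most positive and negative differences, the 5 most evenly retained rises and falls of at least 20 CPM, the 4 members of each list with the smallest adjusted p, and a set of regulators listed by name. Members and lists were chosen with earlier results of these data known, and genes named otherwise are marked as such. Promoters were matched to RefSeq by transcript or symbol. Gk, Angptl8 and Adgre1 were matched as Gyk, Gm6484 and Emr1. Some list members that the naming rule or the counts include are not reported here by name.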

Additional observations from a re-analysis of the deposited data

Results flagged for a closer look

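The ISO responses with and without inhibitors differed (the first minus the second) by edgeR's test of the difference itself for 26 of the named genes, on the log2 scale. It was positive for Pmvk (2.59), Dio2 (2.52), Dct (2.33), Xrcc2 (2.03), Cd55 (1.97), Ppp1r3c (1.94), Ackr3 (1.65), Socs3 (1.52), Arrdc3 (1.42), Fgf2 (1.37), Cry2 (1.32), Pde4d (1.31), Hsph1 (1.25), Trib3 (1.18), Mvk (1.12), Cth (1.09) and Hsd17b7 (1.08). It was negative for Egr1 (-2.69), Pdk4 (-2.38), Map3k8 (-2.29), Pfkfb3 (-2.19), Ccrn4l (-2.12), Angptl4 (-2.06), Fam13a (-1.86), Myc (-1.39) and Nr1d1 (-1.39). Under 20 alternatives, Fgf2 was called in 11 and Dct in 7, whereas Egr1, Socs3, Ccrn4l, Angptl4, Pmvk and Nr1d1 were called in all 20.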

How the results depend on the processing

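The counts of calls with inhibitors, 568 and 428, stayed within 1.5 times under every alternative except a call without a minimum fold (1562 and 2140). They ranged from 476 to 611 and from 356 to 443 when libraries or replicates were left out. Without a minimum fold, ISO against vehicle gave 1670 and 1878, and the difference of the responses 122 and 98. Leaving out replicates moved ISO against vehicle from 769 to between 431 (without replicate 3) and 994 genes higher, and the difference from 55 to between 6 and 66 genes positive and from 46 to between 9 and 73 negative. The lowest counts of the difference came without replicate 2 of every group. Its negative calls were 30 without the third ISO or the first vehicle library and 73 without the second vehicle library. The DESeq2 Wald test gave 92 negative differences, and the replicate block 131. With that block, 984 of the 996 calls with inhibitors and 100 of the 101 differences were kept. Besides the values given above, it lost Cdh1 among named genes with inhibitors. The Cdh1 log2 fold change, Lip+ISO against Lip, was -4.75 with all libraries, and between -5.92 and 0.15 when replicates were left out, the sign turning without the third Lip library (0.05). Medians of the lists of PPAR targets, TGF-β, PKA, tRNA synthetase, fatty acid oxidation, synthesis and uptake, glycogen, mitochondrial ribosomal and smooth muscle genes turned sign when libraries were scaled by totals. A difference of responses rests on 4 groups of 3 libraries, and 3 counts in a library were 0.0678 to 0.132 CPM.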
